A study of Mus musculus with 12 samples.

Results

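The genes described are 8 ligands by which a tumour cell can restrain immune cells or be recognised by them: Cd274, Cd47, Cd24a, Pvr, Nectin2, Lgals9, Lgals3 and Ulbp1. They were chosen by gene symbol and make up 8 of the 31017 genes counted, and all 8 had enough counts to be among the 13763 genes tested. Their RNA was measured in 4T1 cells, a mouse mammary carcinoma line, in 12 libraries of polyadenylated RNA, with 2 libraries in each of 6 groups. The groups were Etv4 knockout clone 1, knockout clone 2 and control cells, each embedded in collagen I gels (3D) and each grown on plastic (2D). The knockout lines are single clones nucleofected with sgRNA against Etv4, and the control cells are pools of clones that went through the same nucleofection with control sgRNA, so a difference between a clone and the control can be particular to that clone. Gels were digested with collagenase before lysis and plastic cultures were not. The labels name more than 1 collagen concentration without saying which 3D library had which, so its part in the 3D values, in the spread within a 3D group and in the clone differences in 3D was not tested. Since the gels, the enzyme and a separate count table always go together, what each adds to a 3D against 2D difference cannot be told apart.

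Immune cells read such ligands through paired receptors. PD-L1, the product of Cd274, engages PD-1 on T cells and restrains them, and galectin-9 (Lgals9) and galectin-3 (Lgals3) are secreted lectins with reported receptors TIM-3 and LAG-3. CD47 and CD24 (Cd24a) are known as signals against phagocytosis that are read by SIRPα and, in the mouse, Siglec-G. PVR and nectin-2 are shared by the activating receptor CD226 and the inhibitory receptor TIGIT, while the Ulbp1 product, also called MULT1, is a stress-induced ligand of the activating receptor NKG2D on natural killer (NK) cells.

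Etv4 encodes a factor of the PEA3 branch of the ETS family, whose members bind DNA with a GGAA core, so the bases upstream of the transcription starts of 3 members are shown for reference, 5′ to 3′ on the gene's strand (RefSeq, GRCm38.p6, the build also called mm10). The capitals mark every match, on either strand, to 3 motifs: AGGAAG (PEA3 core), TTCNNNGAA (STAT site) and ACGTG (hypoxia-inducible factor core). The Lgals9 stretch, chr11:78984947-78985174 on the minus strand, is shown because Lgals9 was lower in both clones in both formats, and it holds 2 AGGAAG matches on the gene's own strand.
Lgals9: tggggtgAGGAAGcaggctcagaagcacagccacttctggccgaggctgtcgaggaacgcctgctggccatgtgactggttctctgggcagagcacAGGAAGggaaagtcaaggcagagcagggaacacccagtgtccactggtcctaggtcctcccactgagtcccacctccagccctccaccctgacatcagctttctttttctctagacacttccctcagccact
The Cd47 stretch, chr16:49855404-49855632 on the plus strand, lies within the annotated gene but outside its exons, is shown because Cd47 had the largest difference between formats of the 8 genes in each line, and holds 1 ACGTG match on the opposite strand.
Cd47: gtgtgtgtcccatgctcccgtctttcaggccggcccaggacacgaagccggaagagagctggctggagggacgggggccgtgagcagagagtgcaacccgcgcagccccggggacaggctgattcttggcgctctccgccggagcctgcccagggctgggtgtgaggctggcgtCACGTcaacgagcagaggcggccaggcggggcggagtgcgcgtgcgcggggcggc
The Cd274 stretch, chr19:29367391-29367437 on the plus strand, is shown because it is the part between the starts of Cd274 and its divergent neighbour Plgrkt that the 250-base window holds, and it has no match.
Cd274: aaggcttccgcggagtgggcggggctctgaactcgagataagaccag
Among 32851 windows of 250 bases before a start, 29.5% held AGGAAG, 7.02% TTCNNNGAA and 16.6% ACGTG. Of the 6 members with such a window, Ulbp1 also had AGGAAG, at 2 places on the opposite strand. Both lie within the annotated Ulbp1 gene, at 160 to 155 and 114 to 109 bases before the RefSeq start. Nectin2 and Lgals3 had none of the 3 motifs. The GGAA core alone was not among the motifs marked or counted, and on 1 strand or the other it occurs in the windows of all 6 members. A match describes letters only, and binding was not measured.

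Total counts per library were 26525130 to 33210413 in 3D and 12277023 to 18702650 in 2D. Etv4 RNA, the check of the target, was still present in the clones. It averaged 69.5 CPM (library-size-scaled read counts, TMM) in clone 1, 89.1 CPM in clone 2 and 97.1 CPM in control in 3D, and 49.5 CPM in clone 1, 47.6 CPM in clone 2 and 77.0 CPM in control in 2D. It was called lower in clone 1 in both formats and in clone 2 in 2D, and in clone 2 in 3D the log2 fold change was -0.12 ± 0.06 (SE, adjusted p = 0.12). Etv4 lies on chromosome 11, as does Lgals9. The genes tested there had a median log2 fold change against control of -0.43 (3D) and -0.38 (2D) in clone 1. In clone 2 that median was 0.02 (3D) and -0.09 (2D). The part of this shift in the Etv4 values was not tested. An RNA level does not read the edit itself. The 6 epithelial markers, keratins and Epcam among them, summed to 2221 to 4079 CPM, whereas the 9 leukocyte markers summed to 1.68 to 11.1 CPM with Itgam, Adgre1 and Ncr1 among those at 0 in all 12 libraries. The 6 fibroblast markers summed to 4.11 to 23.8 CPM and the 5 endothelial markers to 3.53 to 14.9 CPM. The epithelial sums were lower in clone 1 than in control, 2221 to 2231 CPM against 2796 to 2891 CPM in 3D and 2614 to 2729 CPM against 3409 to 3427 CPM in 2D. In clone 2 they were lower than in control in 3D, 2658 to 2700 CPM against 2796 to 2891 CPM, and higher in 2D, 4068 to 4079 CPM against 3409 to 3427 CPM. The part of these shifts in the values below was not tested. In such bulk RNA, fewer cells of a kind and less RNA per cell cannot be told apart. The labels do not say whether the 2 libraries of a group came from separate cultures, so the p-values measure the spread between these libraries, which may be technical.

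Per exon length, the 8 genes spanned more than 2 orders of magnitude. In control cells in 3D the order, in RPKM (CPM divided by exon length in kilobases), was Cd24a 183, Lgals3 136, Cd47 65.1, Ulbp1 17.7, Pvr 13.3, Lgals9 5.21, Nectin2 4.50 and Cd274 1.01. In control cells in 2D it was Cd24a 167, Lgals3 86.3, Ulbp1 16.6, Cd47 9.49, Nectin2 8.40, Pvr 4.66, Lgals9 2.55 and Cd274 0.483. No neighbours in either order had overlapping libraries. Clone 1 had Lgals3 above Cd24a, at 219 against 175 RPKM in 3D and 139 against 134 RPKM in 2D. The neighbours with overlapping libraries were Nectin2 and Cd47 in clone 1 in 2D, and Nectin2 and Pvr as well as Lgals9 and Cd274 in clone 2 in 2D.

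**Figure D1:**
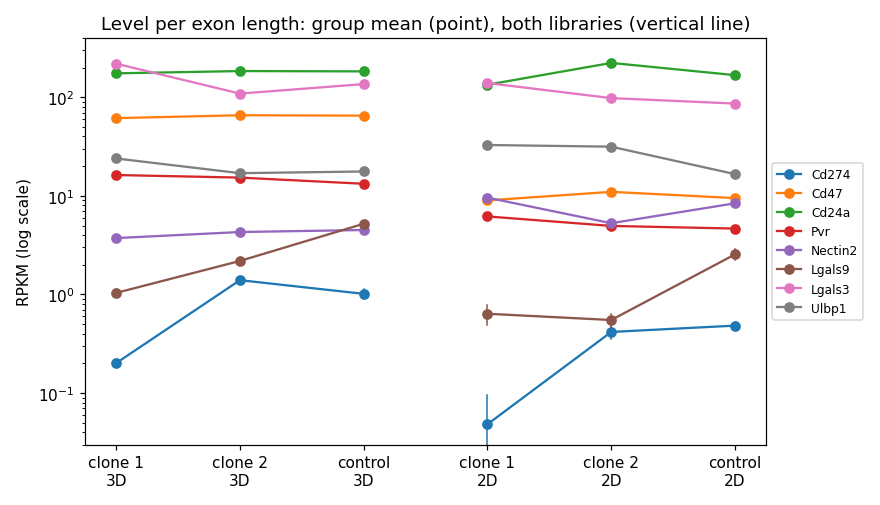
Level of each gene per exon length (RPKM, log axis) in the 6 groups; points are means of 2 libraries, vertical lines join the 2 libraries, and 1 library of clone 1 in 2D had no Cd274 read and runs off the axis. Cd274 is the lowest line in every group and Cd24a or Lgals3 the highest.

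Against control, clone 1 differed in 6 of the 8 genes in 3D and in 6 in 2D, and clone 2 in 3 in 3D and in 6 in 2D, at an adjusted p under 0.05 (edgeR quasi-likelihood, Benjamini-Hochberg over all 13763 genes tested). The share of all genes called was 45.1% for clone 1 and 29.2% for clone 2 in 3D, and 39.8% for clone 1 and 33.9% for clone 2 in 2D, so calls were common throughout the table. In 3D, clone 1 had 3 members higher and 3 lower, where 22% of all genes were called higher and 23% lower. Clone 2 in 3D had 1 higher and 2 lower, beside 11.9% and 17.4% of all genes. In 2D, clone 1 had 3 higher and 3 lower, beside 19.8% and 20%. Clone 2 in 2D had 4 higher and 2 lower, beside 18.9% and 15%. The median log2 fold change of the 8 genes was -0.07 for clone 1 and -0.02 for clone 2 in 3D, and 0.06 for clone 1 and 0.13 for clone 2 in 2D, beside 0 to 0.02 over all genes tested. Both clones are set against the same control libraries, so their values are given side by side.

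**Figure D2:**
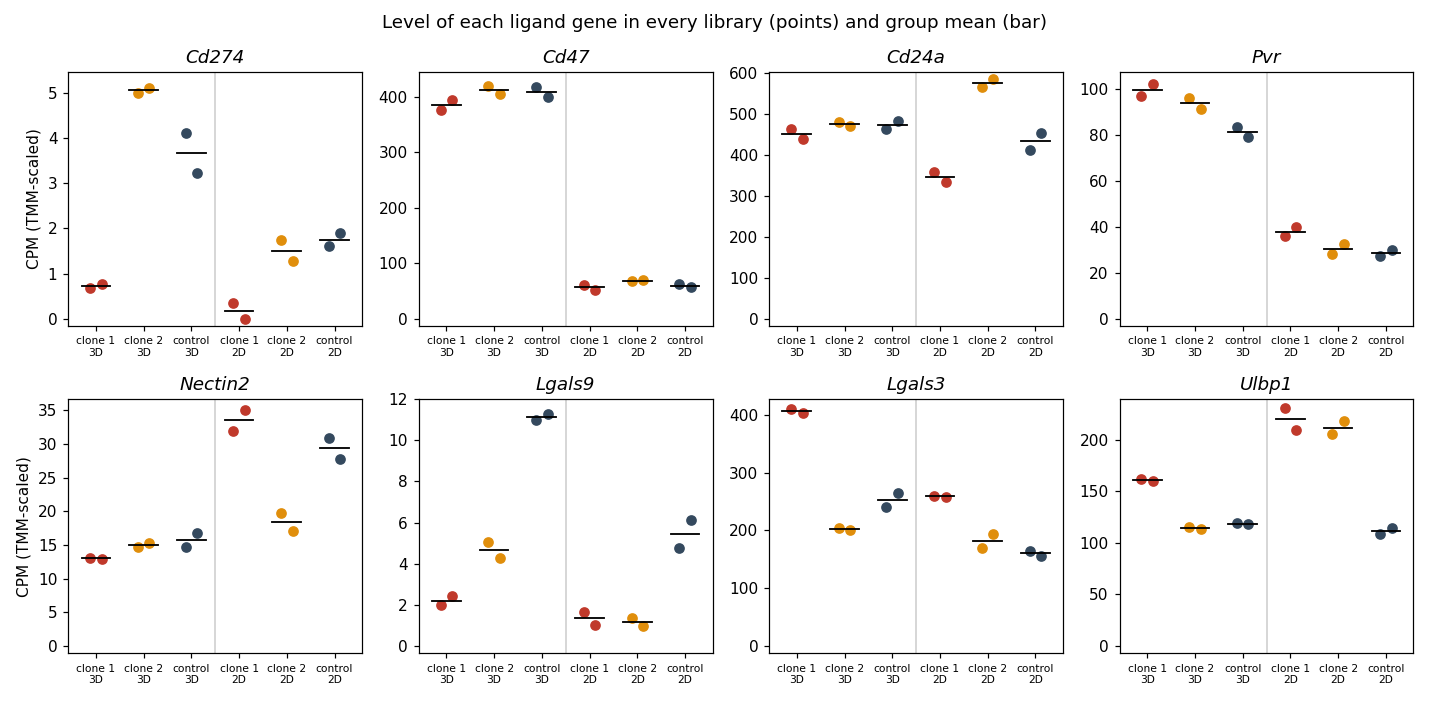
Level of each gene in every library (TMM-scaled CPM, linear axes); points are libraries and black bars the mean of 2. Lgals9 lies below control in both clones in both formats, while Cd274 lies below control in clone 1 only.

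Cd274 (PD-L1; chr19:29367455-29388095, plus strand, mm10, GENCODE M21) had the lowest level of the 8 and fell in clone 1. In 3D, Cd274 stood at 0.683 and 0.773 CPM in clone 1 (18 and 24 reads), 5.00 and 5.11 CPM in clone 2, and 4.12 and 3.22 CPM in control (113 and 90 reads). Clone 1 lay below and clone 2 above both control libraries. Clone 1 was 4.99-fold lower than control (log2 fold change -2.32 ± 0.31, adjusted p = 8.9e-07), and clone 2 gave a log2 fold change of 0.46 ± 0.24 (adjusted p = 0.15). Fitted on the 3D libraries alone, the clone 2 difference of 0.46 passed the threshold (adjusted p = 0.011).

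In 2D, Cd274 gave 5 reads and 0 reads in clone 1, 1.74 and 1.28 CPM in clone 2, and 1.61 and 1.89 CPM in control (23 and 28 reads). The library with 0 reads allows up to 0.241 CPM (3 counts), so both clone 1 libraries lay below control while clone 2 overlapped it. The fitted log2 fold change of clone 1 was -3.19 ± 0.62 (adjusted p = 0.00016), and it ran from -8.27 without clone 1 replicate 1, where the remaining library is at 0, to -2.30 without clone 1 replicate 2. For clone 2 it was -0.19 ± 0.38 (adjusted p = 0.75). Of the exon bases of Cd274, 14.1% are covered by AC119228.1 on the opposite strand, and whether counting used strand is not given in the sources used here.

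The interferon-γ pathway, with the receptor chains Ifngr1 and Ifngr2, the kinases Jak1 and Jak2, STAT factors and IRF1, is the known route of Cd274 induction, and a list of 25 genes that act on Cd274 or on PD-L1 protein was read beside it. All 25 were tested. In clone 1, 5 were called higher and 10 lower in 3D and 3 higher and 7 lower in 2D, with medians of -0.09 and -0.06. In clone 2, 8 were higher and 5 lower in 3D and 6 higher and 2 lower in 2D, with medians of 0.11 and 0.10.

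Jak2, the kinase bound to the interferon-γ receptor, lies upstream of Cd274 on chromosome 19 and averaged 93.9 ± 3.0 CPM in clone 1, 220 ± 0.97 CPM in clone 2 and 167 ± 1.1 CPM in control in 3D (SD, n = 2). For clone 1 the log2 fold change in 3D was -0.83 ± 0.05 (adjusted p = 1.3e-12), beside -0.07 ± 0.06 in 2D (adjusted p = 0.37). Jak2 rose in clone 2 in both formats, by 0.40 ± 0.05 in 3D and 0.42 ± 0.06 in 2D. Irf1, a transcription factor that binds the Cd274 promoter region, fell in clone 1 (-0.59 ± 0.08 in 3D and -0.54 ± 0.08 in 2D), as did Stat3 (-0.54 ± 0.07 and -0.56 ± 0.08) and Ifngr2 (-0.59 ± 0.09 and -0.74 ± 0.11). Socs3, a feedback inhibitor of JAK-STAT signalling, fell in clone 1 too (-0.87 ± 0.08 and -0.33 ± 0.11). Irf1, Stat3 and Socs3 lie on chromosome 11, where the genes tested had a clone 1 median of -0.43 in 3D and -0.38 in 2D. Ifngr2 lies on chromosome 16, where that median was -0.32 in 3D and -0.35 in 2D. The part of these chromosome medians in the falls was not tested. Stub1, a ubiquitin ligase of PD-L1, rose in clone 1 (0.61 ± 0.07 and 0.64 ± 0.07), with 42.3% of its exon bases covered by Jmjd8 on the opposite strand, and so did Hif1a, a hypoxia-inducible factor (0.45 ± 0.06 and 0.20 ± 0.06).

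Plgrkt, the plasminogen receptor gene that starts 64 bases from Cd274 in the other direction, gave -0.35 ± 0.10 in clone 1 in 3D (adjusted p = 0.0063), beside 0.23 ± 0.12 (adjusted p = 0.12) on plastic. The difference of Cd274 from control in clone 1 was larger in size than that of Plgrkt or of Ric1. Ric1, the nearest gene on the other side with a mean of at least 5 CPM, gave 0.37 ± 0.07 (3D) and 0.13 ± 0.07 (2D). Pdcd1lg2 lies between Cd274 and Ric1 and was not among the tested genes of that level. The median of all 461 genes tested on chromosome 19 was 0.14 in 3D and 0.13 in 2D for clone 1.

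The other checkpoint ligands were mostly too low to test, with 6 of 17 tested. In clone 1, 1 was higher and 3 lower in 3D (median -0.49) and 2 were higher and 2 lower in 2D (median -0.31). In clone 2, 1 was higher in 3D (median 0.15), and in 2D none passed, the smallest adjusted p being 0.17, for Tnfsf9 (median -0.06). Cd276 (B7-H3), a further B7-family ligand, averaged 102 CPM in clone 1, 101 CPM in clone 2 and 100.2 CPM in control in 3D, and 33.6 CPM in clone 1, 34.3 CPM in clone 2 and 34.1 CPM in control in 2D, with clone differences of -0.02 to 0.03 (SE at most 0.09). Tnfrsf14 (HVEM), the ligand of BTLA, averaged 0.493 ± 0.21 CPM in clone 1, 5.55 ± 0.36 CPM in clone 2 and 4.81 ± 0.042 CPM in control in 3D. It was called lower in clone 1 there (-3.24 ± 0.33, adjusted p = 1.4e-08). Vsir (VISTA) fell in clone 1 (-1.77 ± 0.23) and rose in clone 2 (1.12 ± 0.18) in 3D.

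Cd47 (chr16:49800533-49915010, plus strand), the ligand of SIRPα, differed little between clones and control. In 3D, Cd47 measured 376 and 394 CPM in clone 1, 419 and 405 CPM in clone 2, and 417 and 400 CPM in control. Clone 1 lay just below control and clone 2 overlapped it, with log2 fold changes of -0.08 ± 0.06 for clone 1 (adjusted p = 0.24) and 0.01 ± 0.06 for clone 2 (adjusted p = 0.89).

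In 2D, Cd47 measured 60.9 and 52.0 CPM in clone 1, 67.7 and 70.1 CPM in clone 2, and 61.9 and 57.1 CPM in control. Clone 1 overlapped control and clone 2 lay above it, with -0.07 ± 0.07 (adjusted p = 0.47) for clone 1 and 0.21 ± 0.07 (adjusted p = 0.023) for clone 2. That call was lost without clone 2 2D replicate 2 (0.19), control 2D replicate 2 (0.15) or clone 1 3D replicate 2 (0.18), and with the 2D libraries fitted alone (0.17), and it was larger with chromosomes centred on their medians (0.36).

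Genes around Cd47 were lower in clone 1. The 411 genes tested on chromosome 16 had in clone 1 a median difference of -0.32 (3D) and -0.35 (2D). The nearest gene with a mean of at least 5 CPM was taken on each side of Cd47. Both fell in clone 1, Ift57 (-0.50 ± 0.11 in 3D and -0.42 ± 0.13 in 2D) and Bbx (-0.76 ± 0.07 and -0.54 ± 0.09). With each chromosome set to a median of 0, Cd47 in clone 1 turned to 0.19 (3D, adjusted p = 0.014) and 0.28 (2D, adjusted p = 0.0071), both called higher. Fitted on the 3D libraries alone, it was called lower there (-0.09, adjusted p = 0.045).

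Sirpa, the receptor of CD47, was measured in the carcinoma cells themselves and rose in both clones. In 3D, Sirpa averaged 30.1 ± 0.39 CPM in clone 1, 14.8 ± 0.49 CPM in clone 2 and 7.77 ± 0.31 CPM in control (SD, n = 2), and in 2D 41.3 ± 0.69 CPM in clone 1, 10.1 ± 1.2 CPM in clone 2 and 5.58 ± 0.88 CPM in control. The log2 fold changes were 1.95 ± 0.11 for clone 1 and 0.93 ± 0.12 for clone 2 in 3D, and 2.88 ± 0.13 for clone 1 and 0.84 ± 0.16 for clone 2 in 2D. Of the 8 genes listed as CD47 or phagocytosis partners, all tested, clone 1 had 4 higher and 2 lower in 3D and 2 higher and 3 lower in 2D, and clone 2 had 3 higher and 2 lower in 3D and 3 higher and 3 lower in 2D, with medians from -0.14 to 0.27. Thbs1, a secreted ligand of CD47, fell in clone 1 in 3D (-1.04 ± 0.06) and rose in clone 2 (0.52 ± 0.06). Calr, the pro-phagocytic calreticulin, rose in clone 1 in 3D (0.72 ± 0.05). B2m, the light chain of MHC class I, fell in both clones in both formats, by 0.39 to 0.51.

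Cd24a (chr10:43578284-43584265, plus strand), a small glycosylphosphatidylinositol-anchored mucin, was the gene whose clones differed from control in 2D but were not called in 3D. In 2D, Cd24a stood at 357 and 334 CPM in clone 1, 566 and 584 CPM in clone 2, and 412 and 452 CPM in control. Neither clone overlapped control, which lay between them. The log2 fold changes were -0.32 ± 0.06 for clone 1 (adjusted p = 3.9e-05) and 0.41 ± 0.05 for clone 2 (adjusted p = 2.0e-06).

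In 3D, Cd24a stood at 463 and 439 CPM in clone 1, 480 and 470 CPM in clone 2, and 463 and 481 CPM in control. Both clones overlapped control, with -0.07 ± 0.05 for clone 1 (adjusted p = 0.34) and 0.01 ± 0.05 for clone 2 (adjusted p = 0.91). With each chromosome set to a median of 0, Cd24a was called lower in clone 2 in 3D (-0.16, adjusted p = 0.030). A stretch of 218 bases matches Gm6212 at 95% identity or more, so reads could be split between them.

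Pvr (CD155; chr7:19903578-19921160, minus strand) rose in clone 1 in both formats. In 3D, Pvr measured 97.0 and 102 CPM in clone 1, 96.1 and 91.3 CPM in clone 2, and 83.2 and 79.1 CPM in control. Both clones lay above both control libraries. The log2 fold changes were 0.30 ± 0.07 for clone 1 (adjusted p = 0.00076) and 0.21 ± 0.07 for clone 2 (adjusted p = 0.021). The clone 1 call was lost with each chromosome set to a median of 0 (0.15). For clone 2 it was lost without control 3D replicate 1 (0.24), control 3D replicate 2 (0.17), clone 2 3D replicate 1 (0.17) or clone 2 3D replicate 2 (0.24).

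In 2D, Pvr measured 36.0 and 39.7 CPM in clone 1, 28.0 and 32.6 CPM in clone 2, and 27.1 and 29.9 CPM in control. Only clone 1 stood apart from control. Its log2 fold change was 0.41 ± 0.09 (adjusted p = 0.00077), beside 0.08 ± 0.09 for clone 2 (adjusted p = 0.54). It was 0.24 and still called with chromosomes centred.

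Nectin2 (CD112; chr7:19716644-19750483, minus strand), an adhesion molecule of adherens junctions, differed from control in clone 2 in 2D. There Nectin2 measured 31.9 and 35.1 CPM in clone 1, 19.8 and 17.1 CPM in clone 2, and 30.9 and 27.8 CPM in control. Clone 2 lay below and clone 1 above both control libraries. The log2 fold change was -0.66 ± 0.11 for clone 2 (adjusted p = 5.1e-05), and for clone 1 0.19 ± 0.11 (adjusted p = 0.17).

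In 3D, Nectin2 measured 13.1 and 12.9 CPM in clone 1, 14.7 and 15.3 CPM in clone 2, and 14.7 and 16.7 CPM in control. Clone 1 lay below control and clone 2 overlapped it. The values were -0.27 ± 0.11 (adjusted p = 0.044) for clone 1 and -0.07 ± 0.11 (adjusted p = 0.69) for clone 2. The clone 1 call was lost with DESeq2 in place of edgeR (-0.24, adjusted p = 0.14), with a replicate block (-0.27, adjusted p = 0.052), with no filter (-0.26, adjusted p = 0.072), without Gm26917 and Gm42418 (-0.23, adjusted p = 0.084), and without control 3D replicate 2 (-0.19), clone 1 3D replicate 1 (-0.30), clone 1 3D replicate 2 (-0.23), clone 2 3D replicate 1 (-0.27) or clone 2 3D replicate 2 (-0.28), and it was -0.42 with chromosomes centred. Gm20512 covers 3.86% of its exon bases on the opposite strand and had 0 to 2 reads per library in 3D and 0 to 5 in 2D.

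Of the 6 other nectins and nectin-like genes, 5 were tested. In clone 1, 2 were higher and 2 lower in 3D, and 1 was higher and 2 lower in 2D, and the median was -0.86 (3D) and -0.74 (2D). In clone 2, 1 was higher and 0 were lower in 3D, and 2 were higher and 0 lower in 2D, and the median was 0.21 (3D) and 0.48 (2D). Nectin3, which pairs with nectin-2 across junctions, fell in clone 1 (-0.86 ± 0.08 in 3D and -0.74 ± 0.09 in 2D) and rose in clone 2 (0.21 ± 0.07 and 0.48 ± 0.08). The medians of the 5 genes given above equal these Nectin3 values, so they add nothing to them. Cadm4, an adhesion molecule of the nectin-like group, rose in clone 1 in both formats (0.72 ± 0.16 in 3D and 1.06 ± 0.21 in 2D). In clone 2 Cadm4 rose in 2D (1.04 ± 0.20), with 0.40 ± 0.16 in 3D (adjusted p = 0.062).

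Lgals9 (galectin-9; chr11:78962974-78984946, minus strand) was the one member called lower in both clones in both formats. In 3D, Lgals9 stood at 2.01 and 2.42 CPM in clone 1, 5.04 and 4.30 CPM in clone 2, and 11.0 and 11.3 CPM in control. In 2D it stood at 1.68 and 1.04 CPM in clone 1, 1.36 and 0.996 CPM in clone 2, and 4.75 and 6.14 CPM in control. Every clone library lay below every control library of its format.

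In 3D, Lgals9 was 4.99-fold lower in clone 1 (log2 fold change -2.32 ± 0.19, adjusted p = 2.5e-10) and 2.38-fold lower in clone 2 (-1.25 ± 0.17, adjusted p = 2.9e-06). In 2D it was 3.94-fold lower in clone 1 (-1.98 ± 0.29, adjusted p = 4.0e-06) and 4.54-fold lower in clone 2 (-2.18 ± 0.28, adjusted p = 1.4e-06). These calls held in all the alternatives run. The 1122 genes tested on chromosome 11 had a median difference of -0.43 (3D) and -0.38 (2D) for clone 1, beside 0.02 (3D) and -0.09 (2D) for clone 2. Ksr1, a scaffold gene, was the nearest gene with a mean of at least 5 CPM at higher coordinates than Lgals9. Ksr1 gave -0.01 ± 0.08 in 3D and -0.42 ± 0.15 in 2D in clone 1. In clone 2 it gave -0.34 ± 0.08 in 3D and -1.15 ± 0.16 in 2D. Lyrm9, the nearest gene of that level at lower coordinates, was below 0 in both clones in both formats. Its clone 1 values were -0.45 ± 0.14 (3D, called) and -0.32 ± 0.14 (2D, not called). Its clone 2 values were -0.13 ± 0.13 (3D, not called) and -0.48 ± 0.14 (2D, called). Whether the Lgals9 falls are shared with these neighbours was not tested.

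Lgals3 (galectin-3; chr14:47367751-47386160, plus strand) rose in clone 1 in both formats. In 3D, Lgals3 measured 409 and 404 CPM in clone 1, 204 and 201 CPM in clone 2, and 241 and 264 CPM in control. Clone 1 lay above and clone 2 below control. The log2 fold changes were 0.69 ± 0.06 for clone 1 (adjusted p = 2.6e-10) and -0.32 ± 0.06 for clone 2 (adjusted p = 0.0001).

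In 2D, Lgals3 measured 260.1 and 257 CPM in clone 1, 170.2 and 194 CPM in clone 2, and 165 and 156 CPM in control. Both clones lay above control. Clone 1 gave 0.69 ± 0.06 (adjusted p = 1.6e-09) and clone 2 0.18 ± 0.06 (adjusted p = 0.025). The clone 2 value was 0.27 without clone 2 2D replicate 1. Its call was lost without clone 2 2D replicate 2 (0.09), control 2D replicate 2 (0.14) or clone 1 3D replicate 2 (0.15), with the 2D libraries fitted alone (0.14), with no filter (0.15), with chromosomes centred (0.15) and without Gm26917 and Gm42418 (0.15).

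Of 9 further galectins and galectin partners, 8 were in the tables and 6 were tested. In clone 1, 2 were higher and 1 lower in 3D and 2 higher and 2 lower in 2D, and in clone 2, 0 were higher and 3 lower in 3D and 1 higher and 1 lower in 2D. Their medians were -0.13 for clone 1 and -0.17 for clone 2 in 3D, and -2.04 for clone 1 and -0.60 for clone 2 in 2D. In clone 1 in 2D, 2 of the 6 were called higher, 2 lower and 2 not called. That median thus does not stand for the list as a whole. Lgals1, the galectin-1 gene, averaged 2351 ± 67 CPM in clone 1, 1130 ± 21 CPM in clone 2 and 1440 ± 7.5 CPM in control in 3D (SD, n = 2). Its log2 fold changes were 0.71 ± 0.05 in clone 1 and -0.35 ± 0.05 in clone 2 in 3D, and 0.63 ± 0.05 in clone 1 and 0.33 ± 0.05 in clone 2 in 2D. These are set beside those of Lgals3, 0.69 and -0.32 in 3D and 0.69 and 0.18 in 2D, and their likeness was not tested. Lgals3bp, a secreted glycoprotein bound by galectin-3, averaged 1.74 ± 0.0050 CPM in clone 1, 23.6 ± 1.8 CPM in clone 2 and 19.7 ± 0.98 CPM in control in 3D, and fell in clone 1 (-3.49 ± 0.15 in 3D and -3.80 ± 0.22 in 2D). Lgals8, another galectin, rose in clone 1 (0.59 ± 0.08 in 3D and 0.32 ± 0.09 in 2D).

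Ulbp1 (MULT1; chr10:7440362-7473638, minus strand), the NKG2D ligand among the 8, rose in both clones in 2D. There it measured 231 and 209.9 CPM in clone 1, 206 and 218 CPM in clone 2, and 109 and 114 CPM in control. Both clones lay above control, and overlapped each other. Clone 1 had 1.98 times (0.98 ± 0.06, adjusted p = 8.1e-13) and clone 2 1.90 times (0.92 ± 0.06, adjusted p = 7.6e-12) the control level.

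In 3D, Ulbp1 measured 162 and 160.2 CPM in clone 1, 115 and 113 CPM in clone 2, and 119 and 118 CPM in control. Clone 1 lay above control and clone 2 just below it. Clone 1 gave 0.44 ± 0.06 (adjusted p = 3.5e-07) and clone 2 -0.06 ± 0.06 (adjusted p = 0.49). With each chromosome set to a median of 0 the clone 2 difference of -0.22 passed the threshold. Stretches of 230 bases match Gm16531 and Gm1972 at 95% identity or more, so reads of these genes could be split.

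Of 14 other ligands of NK receptors, 10 were among the genes counted and 7 were tested. In clone 1, 0 were higher and 3 lower in 3D and 1 higher and 3 lower in 2D, and in clone 2, 2 were higher and 2 lower in 3D and 1 higher and 2 lower in 2D. Their medians were -0.16 for clone 1 and -0.01 for clone 2 in 3D, and -0.28 for clone 1 and -0.27 for clone 2 in 2D. Raet1e, another NKG2D ligand, averaged 0.0161 CPM in clone 1, 0.0182 CPM in clone 2 and 0.416 CPM in control in 3D, and 0 CPM in clone 1, 0.0711 CPM in clone 2 and 0.721 CPM in control in 2D. It was called lower in both clones in both formats, at levels of a few reads. Of the Raet1e exon bases, 23% are covered on the same strand by H60b and Raet1d, so reads there could belong to more than 1 gene. H2-T23, the Qa-1 gene whose product engages the inhibitory receptor NKG2A, fell in clone 1 (-0.35 ± 0.11) and rose in clone 2 (0.55 ± 0.10) in 3D.

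**Figure D3:**
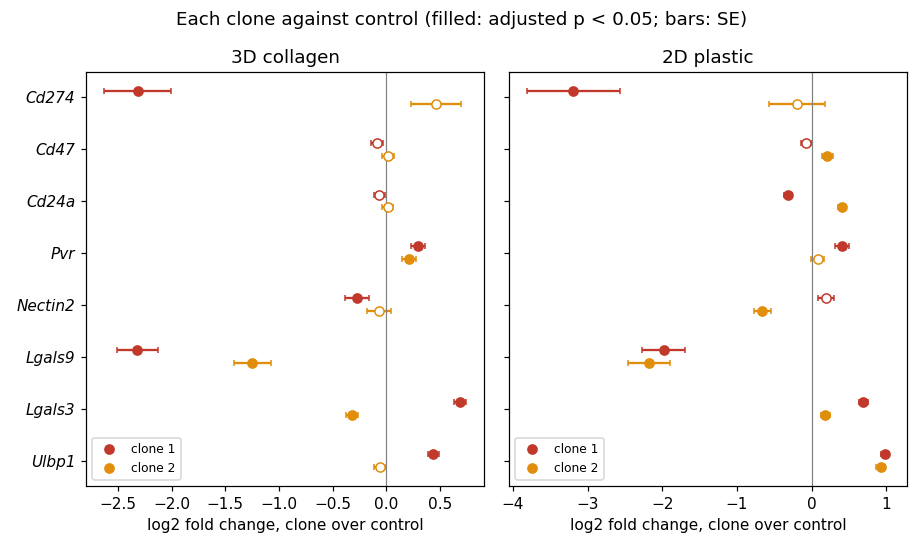
Log2 fold change of each clone over control in 3D (left) and 2D (right); bars are standard errors, filled points passed an adjusted p of 0.05, and the axes differ. Lgals9 is filled and negative in all 4 comparisons, and Cd274 in the clone 1 comparisons.

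Set against each other, clone 2 and clone 1 differed in 4 of the 8 genes in 3D, where 54.9% of all genes were called, and in 6 in 2D, where 41.6% were. In 3D, 2 members were higher and 2 lower in clone 2, beside 26.4% and 28.5% of all genes, and in 2D 3 were higher and 3 lower, beside 23.2% and 18.4%. Cd274 was higher in clone 2, by 2.78 ± 0.30 (adjusted p = 1.3e-08) in 3D and by 3.00 ± 0.63 (adjusted p = 0.00034) in 2D. The 2D value rests on 5 and 0 reads in clone 1, and was 8.08 without clone 1 2D replicate 1 and 2.11 without clone 1 2D replicate 2. Lgals3 was lower in clone 2, with log2 fold changes of -1.01 ± 0.06 (3D) and -0.51 ± 0.06 (2D). Those were the genes called in the same direction in both formats.

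In 3D, Ulbp1 was lower (-0.49 ± 0.06) and Lgals9 higher (1.07 ± 0.21, adjusted p = 0.0001) in clone 2 than in clone 1, beside -0.06 ± 0.06 for Ulbp1 and -0.20 ± 0.38 for Lgals9 in 2D. The median of chromosome 11 in 3D was 0.46 in this comparison, and with chromosomes centred Lgals9 was 0.61 (adjusted p = 0.019) and Ulbp1 -0.74, while Cd24a in 3D was called lower in clone 2 (-0.16, adjusted p = 0.011). In 2D, clone 2 had more Cd24a (0.73 ± 0.06) and Cd47 (0.28 ± 0.07) and less Nectin2 (-0.85 ± 0.11) and Pvr (-0.33 ± 0.09) than clone 1, none of which was called in 3D. Fitted on the 3D libraries alone, Cd47 (0.10) and Nectin2 (0.21) were called higher in clone 2, and with chromosomes centred Nectin2 was too (0.34). The Cd47 call was lost without clone 1 2D replicate 2 (0.17) and with each chromosome set to a median of 0 (0.07), which also brought the Ulbp1 difference in 2D past the threshold (-0.21). The Pvr call was lost without clone 1 2D replicate 2 (-0.26) or clone 2 2D replicate 1 (-0.21).

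Collagen gels against plastic moved nearly every member, as they moved most of the table: 8 of 8 were called in clone 1, 8 in clone 2 and 7 in control, where 75.1% (clone 1), 79.5% (clone 2) and 77.2% (control) of all genes were called. Clone 1 had 6 members higher and 2 lower in 3D, beside 39.8% and 35.3% of all genes. Clone 2 had 5 higher and 3 lower, beside 42.5% and 37%, and control 6 higher and 1 lower, beside 41.7% and 35.6%. The median of the 8 was 0.67 in clone 1, 0.90 in clone 2 and 0.84 in control, beside 0.08 (clone 1), 0.11 (clone 2) and 0.10 (control) over all genes tested. Other measures moved with format: Gm26917 took 10.9% to 15.0% of counts in 3D and 1.75% to 2.03% in 2D, and mitochondrial genes 1.45% to 1.76% in 3D and 0.314% to 0.515% in 2D. Fibroblast markers summed to 19.9 to 23.8 CPM in 3D and 4.11 to 7.39 CPM in 2D, leukocyte markers to 7.59 to 11.1 CPM in 3D and 1.68 to 5.40 CPM in 2D, and endothelial markers to 3.53 to 5.86 CPM in 3D and 8.53 to 14.9 CPM in 2D. Of the 6 fibroblast markers 1 was tested (Pdgfra), of the 5 endothelial markers 1 (Egfl7) and of the 9 leukocyte markers 2 (Cd68 and Csf1r). The rest were too low to test, so these sums do not stand for whole sets of markers. The part of all these measures in the format differences was not tested.

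Cd47 was higher in 3D than in 2D by 2.77 ± 0.07 in clone 1, 2.58 ± 0.06 in clone 2 and 2.78 ± 0.07 in control, which is 6.81 times in clone 1, 5.99 times in clone 2 and 6.86 times in control. Pvr was higher in 3D by 1.40 ± 0.08 in clone 1, 1.64 ± 0.08 in clone 2 and 1.51 ± 0.08 in control. For both genes no 3D library overlapped a 2D library of its line, and neither format difference was called as different between a clone and control, apart from Cd47 in clone 2 with chromosomes centred on their medians (-0.30).

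Cd274 was higher in 3D by 1.94 ± 0.68 in clone 1 (adjusted p = 0.013), 1.72 ± 0.30 in clone 2 and 1.07 ± 0.31 in control. In clone 1 this rests on 5 reads in 2D, and it was 7.03 without clone 1 2D replicate 1 and 1.06 and not called without clone 1 2D replicate 2. Lgals9 was higher in 3D by 0.69 ± 0.31 in clone 1 (adjusted p = 0.046), 1.96 ± 0.27 in clone 2 and 1.03 ± 0.19 in control. The clone 1 value was not called without clone 1 2D replicate 2 (0.41), clone 1 3D replicate 2 (0.55), control 3D replicate 1 (0.70) or replicate 2 (0.70), or clone 2 3D replicate 1 (0.69) or replicate 2 (0.70), nor with a replicate block (0.69) or chromosomes centred (0.65), and it was 1.09 without clone 1 2D replicate 1. Nectin2 was the member called lower in 3D in all 3 lines, by -1.36 ± 0.11 in clone 1, -0.30 ± 0.11 in clone 2 (adjusted p = 0.016) and -0.90 ± 0.11 in control. The clone 2 value was not called without clone 2 2D replicate 1 (-0.18), clone 2 3D replicate 1 (-0.27) or clone 2 3D replicate 2 (-0.31), nor with DESeq2 (-0.23) or no filter (-0.25).

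Among related genes, Nectin1, a receptor for herpesviruses at junctions, was higher in 3D by 2.66 ± 0.08 in clone 1, 2.46 ± 0.07 in clone 2 and 2.18 ± 0.07 in control. Cd276 was higher in 3D by 1.61 ± 0.08 in clone 1, 1.56 ± 0.07 in clone 2 and 1.55 ± 0.08 in control. Lgals1 was lower in 3D by -1.47 ± 0.05 in clone 1, -2.22 ± 0.06 in clone 2 and -1.54 ± 0.05 in control, whereas Lgals3 was higher by 0.65 ± 0.06 in clone 1, 0.15 ± 0.06 in clone 2 (adjusted p = 0.020) and 0.66 ± 0.06 in control. The Lgals3 value of clone 2 was not called without clone 2 2D replicate 1 (0.06) or clone 2 3D replicate 1 (0.15), nor with chromosomes centred (0.04), and it was 0.25 without clone 2 2D replicate 2.

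The effect of format itself differed from control in 2 members for clone 1, where 7.02% of all genes were called, and in 4 for clone 2, where 22.2% were. For clone 1, 1 member was above 0 and 1 below, beside 3.57% and 3.44% of all genes, and for clone 2, 1 was above and 3 were below, beside 7.43% and 14.8%. This interaction is the log2 fold change of clone over control in 3D minus the same in 2D. Ulbp1 had the largest called interaction in each clone: it was -0.54 ± 0.08 in clone 1 (adjusted p = 5.7e-05) and -0.98 ± 0.08 in clone 2 (adjusted p = 4.8e-09). Ulbp1 was lower in 3D than in 2D by -0.46 ± 0.06 in clone 1 and -0.89 ± 0.06 in clone 2, and gave 0.09 ± 0.06 in control (adjusted p = 0.17). Cd274 had a larger but uncalled interaction in clone 1, 0.87 ± 0.79 (adjusted p = 0.59), and in clone 2 gave 0.65 ± 0.44 (adjusted p = 0.32). The Ulbp1 value in control passed the threshold with DESeq2 size factors (0.14).

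Cd24a had interactions of opposite sign, 0.26 ± 0.08 in clone 1 (adjusted p = 0.043) and -0.40 ± 0.08 in clone 2 (adjusted p = 0.0004). It was higher in 3D in clone 1 (0.38 ± 0.05), lower in clone 2 (-0.27 ± 0.05) and higher in control (0.13 ± 0.05, adjusted p = 0.036). The control value was not called without control 2D replicate 1 (0.06), control 3D replicate 2 (0.12) or clone 1 3D replicate 2 (0.11), nor with chromosomes centred (0.03), and it was 0.20 without control 2D replicate 2. The clone 1 interaction was not called without clone 1 3D replicate 1 (0.20), clone 2 3D replicate 1 (0.26) or replicate 2 (0.24), control 3D replicate 1 (0.21) or replicate 2 (0.27), clone 1 2D replicate 2 (0.21) or control 2D replicate 2 (0.18), nor with a replicate block (0.25, adjusted p = 0.064).

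Lgals3 (-0.50 ± 0.08, adjusted p = 0.00011) and Nectin2 (0.59 ± 0.16, adjusted p = 0.0070) had a called interaction in clone 2. The Nectin2 interaction of clone 2 was 0.50 and not called without control 3D replicate 1. In clone 1, Nectin2 gave -0.46 ± 0.15 (adjusted p = 0.069), called without control 2D replicate 1 (-0.54), clone 2 2D replicate 1 (-0.46) or clone 2 2D replicate 2 (-0.46). Lgals9 in clone 2 gave 0.93 ± 0.34 (adjusted p = 0.052), called without control 2D replicate 1 (1.10), clone 1 2D replicate 1 (0.93) or clone 1 2D replicate 2 (0.93), and with DESeq2 size factors (0.96), no filter (0.97) or Gm26917 and Gm42418 left out (0.98). Cd47 in clone 2 gave -0.20 ± 0.09 (adjusted p = 0.12).

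**Figure D4:**
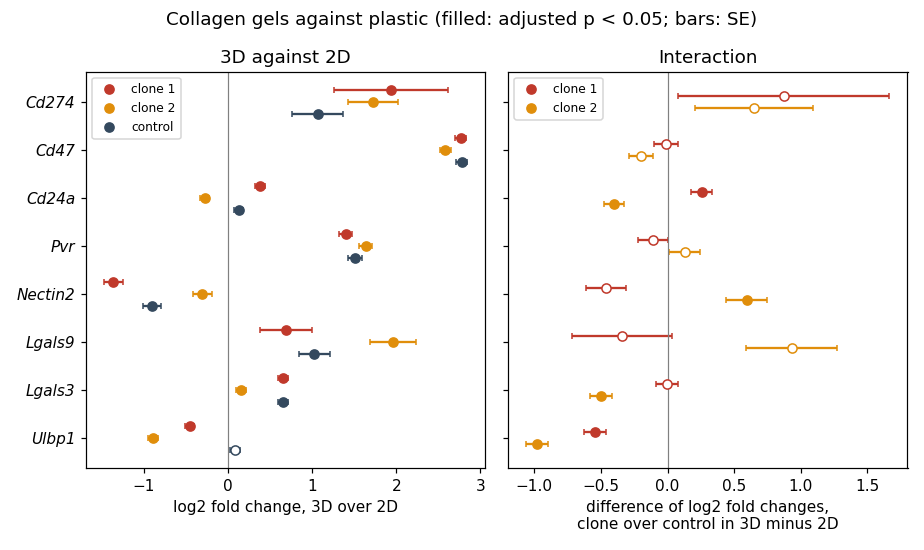
Left, log2 fold change of 3D over 2D in clone 1, clone 2 and control; right, the interaction, the clone over control log2 fold change in 3D minus that in 2D. Bars are standard errors and filled points passed an adjusted p of 0.05; Ulbp1 is below 0 on the right for both clones, and Cd24a lies on opposite sides of 0.

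Patterns like those of the members were sought among 9760 tested genes of at least 5 CPM, by the root mean square difference of log2 CPM over the 12 libraries after each format was centred on its own mean. Only Nectin2, Lgals3 and Ulbp1 reached 5 CPM and spanned at least 1 on that scale. Nearest to Nectin2 were Cbx7 (0.07), Tgif2 (0.08) and Mnt (0.11). Nearest to Lgals3 were Ccnf (0.06), Uqcc2 (0.07) and Rps6ka4 (0.07). Nearest to Ulbp1 were Krt19 (0.10), Cd151 (0.10) and Rell1 (0.12). The measure describes these 12 libraries and carries no test.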

How the data were processed

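Polyadenylated RNA of 12 libraries was measured, 2 in each of 6 groups taken from the labels. The values deposited by the authors are whole-number read counts of 31017 gene symbols, with the 2D and the 3D libraries in separate tables. The submitters' processing notes name build mm10 and the tools Cell Ranger 3.0.0, featureCounts, FastQC 0.11.9, R 4.1.1 and STAR 2.7.9a. What each tool did, and whether counting used strand, is not given in the sources used here; the library kit keeps strand per the labels' protocols.

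The tables were joined by symbol and analysed in R 4.3.3 with edgeR 4.0.16, limma 3.58.1 and, as an alternative, DESeq2 1.42.0. Genes were filtered with filterByExpr (13763 kept), library sizes were scaled by TMM (trimmed mean of M values), and a mean per group was fitted over all 12 libraries by edgeR's quasi-likelihood method (6 residual degrees of freedom, biological coefficient of variation 4.51%). Tests were two-sided with Benjamini-Hochberg adjustment over all genes tested, at 0.05. The fit was tested on simulated data. Depth limits low genes: 3 counts equal 0.0966 to 0.241 CPM. No 2 libraries agreed within sampling noise.

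The 8 members and the gene lists were chosen with earlier results of these data known. All members are named, and from each list up to 4 genes of smallest p in a comparison. Positions and exon lengths are from GENCODE M21 (mm10). Alternatives were another scaling, another test, no filter, a replicate block, each format alone, chromosomes centred on their medians, 2 abundant genes (Gm26917 and Gm42418) left out, and each library left out.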

Additional observations from a re-analysis of the deposited data

Results flagged for a closer look

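For 6 pairs of a member and a clone, the difference from control was not the same in 3D and in 2D, by the test of that difference in edgeR's fit over all genes (log2 fold change of clone over control in 3D minus that in 2D). For Ulbp1 it was -0.54 ± 0.08 (SE) in clone 1 (adjusted p = 5.7e-05) and -0.98 ± 0.08 in clone 2 (adjusted p = 4.8e-09). For Cd24a it was 0.26 ± 0.08 in clone 1 (adjusted p = 0.043) and -0.40 ± 0.08 in clone 2 (adjusted p = 0.0004). In clone 2 it was also -0.50 ± 0.08 for Lgals3 (adjusted p = 0.00011) and 0.59 ± 0.16 for Nectin2 (adjusted p = 0.0070). No group held enough libraries for a single library to be tested as standing apart.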

How the results depend on the processing

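Members called in clone 2 against control in 3D numbered 3, and 5 with chromosomes centred on their medians; genes called over the whole table there numbered 4023, 6440 with each format fitted alone, and 2429 to 4666 with 1 library left out. For the clone 1 interaction, members called were 2, 1 with a replicate block (Cd24a was lost) and 1 to 3 with 1 library left out, and genes called were 966, ranging from 434 to 1259; for the clone 2 interaction, genes called were 3059, ranging from 1884 to 3328. For samples of the same replicate number, correlations of their deviations over all genes tested were between -0.05 and 0.02. Noise in low counts can pull such values towards 0, so whether these samples share a handling step was not tested. The block also moved the members called from 6 to 5 in clone 1 against control in 3D (Nectin2 lost). In 3D against 2D in clone 1 it moved them from 8 to 7 (Lgals9 lost), and it changed no other member's call.

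Some log2 fold changes that were not called changed sign. With chromosomes centred, 4 of them also passed the threshold in the new direction: Cd47 in clone 1 against control in both formats, and Cd24a in 3D in clone 2 against control and against clone 1. There Cd47 was 0.28 (2D) and 0.19 (3D) in clone 1 against control and -0.14 in clone 2 against clone 1 in 3D; Cd24a was 0.0082 in clone 1 and -0.16 in clone 2 against control in 3D, and -0.16 between clones in 3D; Pvr was -0.013 in clone 2 against control in 2D and 0.054 between clones in 3D; Ulbp1 in control was -0.0054 for 3D against 2D. The clone 1 interaction of Cd47 was 0.0146 with DESeq2 size factors, 0.0148 with the DESeq2 Wald test, 0.0024 with no filter and 0.0288 without Gm26917 and Gm42418; that of Lgals3 was 0.0207, 0.0208, 0.0083 and 0.0350 in the same order, and 0.00017 with chromosomes centred. Leaving out 1 library gave ranges that span 0 for Cd274 (-0.014 to 5.96), Cd47 (-0.12 to 0.11), Lgals9 (-0.62 to 0.059) and Lgals3 (-0.083 to 0.050) in the clone 1 interaction, for Cd47 in clone 1 in 2D (-0.19 to 0.034) and clone 2 in 3D (-0.017 to 0.042), for Cd24a in clone 1 in 3D (-0.12 to 0.0051) and clone 2 in 3D (-0.019 to 0.039), for Pvr in clone 2 in 2D (-0.027 to 0.20), for Nectin2 in clone 2 in 3D (-0.16 to 0.026), and between clones in 2D for Lgals9 (-0.49 to 0.20) and Ulbp1 (-0.13 to 0.013). The cause was not tested. Of the members' values with 1 library left out, 989 kept direction and call, 41 lost a call, 6 gained one and 20 changed sign; under the other alternatives the numbers were 524, 21, 13 and 18. Without the filter the median of all genes in 3D against 2D moved by 0.13 to 0.19. Low counts limit Cd274 in 2D most.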

Other observations

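RNA of receptors that read these ligands was looked at in the carcinoma cells as well. Of 12 receptor genes of immune cells, 3 were tested (Tigit, Havcr2 and Siglecg), while Pdcd1 and Cd226 were at 0 in all 12 libraries. Tigit, the receptor of PVR and nectin-2, averaged 30.2 ± 0.57 CPM in clone 1, 8.74 ± 0.44 CPM in clone 2 and 19.5 ± 0.12 CPM in control in 3D (SD, n = 2), and 9.40 ± 1.2 CPM in clone 1, 4.56 ± 0.69 CPM in clone 2 and 6.14 ± 0.48 CPM in control in 2D. By edgeR's test it rose in clone 1 (0.63 ± 0.11 on the log2 scale in 3D and 0.62 ± 0.16 in 2D) and fell in clone 2 in 3D (-1.16 ± 0.12). Havcr2, the TIM-3 gene, averaged 11.3 ± 0.048 CPM in clone 1, 10.3 ± 0.27 CPM in clone 2 and 13.3 ± 0.78 CPM in control in 3D, and 3.00 ± 0.88 CPM in clone 1, 6.21 ± 0.57 CPM in clone 2 and 7.68 ± 1.7 CPM in control in 2D. It fell in clone 1 in 2D (-1.37 ± 0.22, adjusted p = 1.8e-05), with -0.23 ± 0.14 in 3D (adjusted p = 0.18), and the clone 1 difference changed with format (interaction 1.14 ± 0.26, adjusted p = 0.0078). Siglecg, the mouse receptor of CD24, averaged 2.47 ± 0.032 CPM in clone 1, 0.188 ± 0.036 CPM in clone 2 and 0.139 ± 0.10 CPM in control in 2D, and rose in clone 1 there (adjusted p = 3.6e-05). Of the 3 receptors, clone 1 had 1 higher and 0 lower in 3D and 2 higher and 1 lower in 2D, and clone 2 had 0 higher and 1 lower in 3D and none called in 2D, the smallest adjusted p being 0.059, for Tigit. The 9 leukocyte markers summed to 8.24 to 11.1 CPM in clone 1, 8.43 to 8.99 CPM in clone 2 and 7.59 to 9.48 CPM in control in 3D, and to 1.68 to 3.86 CPM in clone 1, 3.06 to 3.25 CPM in clone 2 and 3.98 to 5.40 CPM in control in 2D.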
